A study of Rattus with 27 samples.

Results

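The 26S proteasome and the cytosolic chaperonin were followed in rat brain, white blood cells and spleen 6 h after middle cerebral artery occlusion (MCAO), a model of ischaemic stroke. Genes were taken by symbol: the Psma, Psmc, Psmd, Psme, Psmf and Psmg families, Psmb1 to Psmb7, Psmb10, Tcp1 and Cct2 to Cct8. Of 14506 genes measured, 53 met this rule, 44 of them proteasome symbols and 9 chaperonin symbols. They comprised 7 alpha-ring genes, 8 beta-ring genes, 6 ATPases, 11 other regulatory-particle genes, 3 assembly chaperones of the base (Psmd5, Psmd9 and Psmd10), 4 activators, 3 assembly chaperones of the core and 9 chaperonin genes. The pattern also took in Psmc3ip, a meiotic recombination factor, and Psme3ip1, which binds the activator Psme3, and these 2 are no proteasome subunits. Psma3, Psma8, Psmf1, Psmg3, Psmg4l1 and Cct8l2 also match by name in RefSeq and were not analysed here; the probe of Psma3 is shared with Psma3l.

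The proteasome degrades proteins tagged with ubiquitin. Its barrel-shaped core has outer rings of alpha subunits, which gate the entrance, and inner rings of beta subunits, of which Psmb5, Psmb6 and Psmb7 carry the active sites in most tissues. In cells of the immune system, and elsewhere under interferon, Psmb8, Psmb9 and Psmb10 replace them to form the immunoproteasome, which favours peptides for presentation on MHC class I. A regulatory particle with 6 ATPases unfolds the substrate, and other activators (Psme1 with Psme2, Psme3, Psme4) can cap the core instead. The chaperonin, a double ring of 8 kinds of subunit (Tcp1, Cct2 to Cct5, Cct6a or its testis form Cct6b, Cct7 and Cct8), folds newly made actin and tubulin.

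Sprague Dawley rats gave 3 tissues each: a brain homogenate, a spleen homogenate and the white cells separated from blood. The groups, each of 3 rats, were vehicle-labelled, model-labelled and sham; the first 2 underwent MCAO, and sham rats had anaesthesia and separation of the vessels only. The sample titles use these names, whereas the protocol lists sham, vehicle control and a group given YJ (Yiqi Jiedu, a herbal formula) at 25 mg/kg, and no label says which MCAO group received YJ. Values are log2 intensities from 27 Affymetrix rat arrays, and a difference of 1 is a 2-fold change. Their number, 3 arrays per group, limits the precision, and p-values set a difference against the spread between arrays of a group. Contrasts between tissues pool that spread over all 27 arrays and treat the tissues of a rat as independent.

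Arrays of 1 group correlated with r between 0.968 and 0.995 across genes. The tissue labels fitted their markers: in sham rats the neuronal gene Snap25 averaged 12.09 in brain, 3.94 in white blood cells and 3.56 in spleen, and the leukocyte gene Ptprc 4.60, 10.85 and 10.75. A pair of brain arrays stood apart. On sham rat 5 the cortical gene Slc17a7, the only one of 5 cortex markers measured, read 5.10 and 6 hypothalamic and thalamic markers averaged 9.04. On vehicle-labelled rat 2 Slc17a7 read 7.28, against 10.47 to 11.12 on the other 7 brain arrays. The hypothalamic and thalamic average was 5.39 on vehicle-labelled rat 2 and lay between 4.50 and 5.33 on those 7 arrays. The pair was therefore not alike: vehicle-labelled rat 2 stood apart by Slc17a7 and hardly by this average. Comparisons of sham tissues were repeated without sham rat 5 in any tissue, and brain comparisons between groups without the pair. In bulk tissue, fewer cells of a type and less RNA per cell cannot be told apart.

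Before any MCAO effect, the sham rats showed many proteasome genes at different levels between the tissues. Brain held more of the standard active-site genes and less of Psmb10, Psme1, Psme2 and Psme4 than either other tissue, and white blood cells held least of most subunits. Over the 53 genes, sham levels were lowest in white blood cells for 43 and in brain for 10, and highest in spleen for 29, in brain for 19 and in white blood cells for 5.

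Psmb5, which cuts after hydrophobic residues, had 7.45, 7.42 and 7.50 in sham brains, 6.60, 6.31 and 6.48 in sham white blood cells and 7.06, 7.04 and 7.04 in sham spleens. Psmb7, which cuts after basic residues, had 9.88, 9.99 and 10.05 in brain, 8.66, 8.90 and 8.60 in white blood cells and 9.34, 9.35 and 9.41 in spleen. The tissues did not overlap for either gene, with brain highest and white blood cells lowest. By limma over all 27 arrays, Psmb5, Psmb6 and Psmb7 were higher in brain than in white blood cells by 0.99 ± 0.10, 0.94 ± 0.12 and 1.25 ± 0.11 (SE, n = 3 each; limma adjusted p = 6.39e-09, 3.87e-07 and 3.51e-10). They were also higher in brain than in spleen, by 0.41, 0.58 and 0.61 (limma adjusted p = 0.00130, 0.000294 and 3.73e-05).

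Psmb10, the immunoproteasome counterpart of Psmb7, ran the other way. It had 6.55, 6.53 and 6.83 in sham brains, 8.03, 8.37 and 8.05 in sham white blood cells and 8.73, 8.32 and 8.54 in sham spleens. Every brain array lay below every array of the other tissues, and white blood cells and spleen overlapped. Its difference in brain was -1.51 ± 0.16 against white blood cells and -1.89 ± 0.16 against spleen (SE; limma adjusted p = 1.62e-08 and 3.51e-10). The other immunoproteasome subunits, which the symbol rule leaves out, did likewise: in brain, Psmb8 fell by 3.33 and Psmb9 by 3.09 relative to spleen (limma adjusted p = 4.89e-15 and 1.68e-12). Beside these, Ptprc differed by -6.15 in brain relative to spleen, and the part of leukocyte number in the differences was not tested.

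Among the activators, Psme1, Psme2 and Psme4 were lower in brain than in either other tissue. Psme1 had 8.07, 8.18 and 8.73 in sham brains, against 10.43, 10.22 and 10.02 in sham spleens, and Psme2, its partner in the interferon-induced activator ring, had 6.94, 7.29 and 7.94 in brain against 9.59, 9.40 and 9.63 in spleen. Psme4, an activator known for degrading acetylated histones, had 6.32, 6.38 and 6.72 in brain against 8.40, 8.72 and 8.82 in spleen. Neither tissue overlapped the other for any of these 3 genes, with brain lower throughout. Their differences were -1.90 ± 0.17 for Psme1, -2.15 ± 0.19 for Psme2 and -2.17 ± 0.21 for Psme4 (SE; limma adjusted p = 4.45e-10, 6.89e-10 and 1.74e-09). A second probe of Psme2 gave -2.20, and a dimmer second probe of Psme1 gave -0.78. Against white blood cells the differences of the same genes in brain were -1.82, -1.72 and -2.22 (limma adjusted p = 7.87e-10, 3.06e-08 and 1.01e-09). Psme3, a nuclear activator that does not need ubiquitin, was highest in white blood cells, by 0.55 ± 0.14 over spleen (SE; limma adjusted p = 0.00278) and brain lay below white blood cells by a difference of -0.57 (limma adjusted p = 0.00104).

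**Figure D1:**
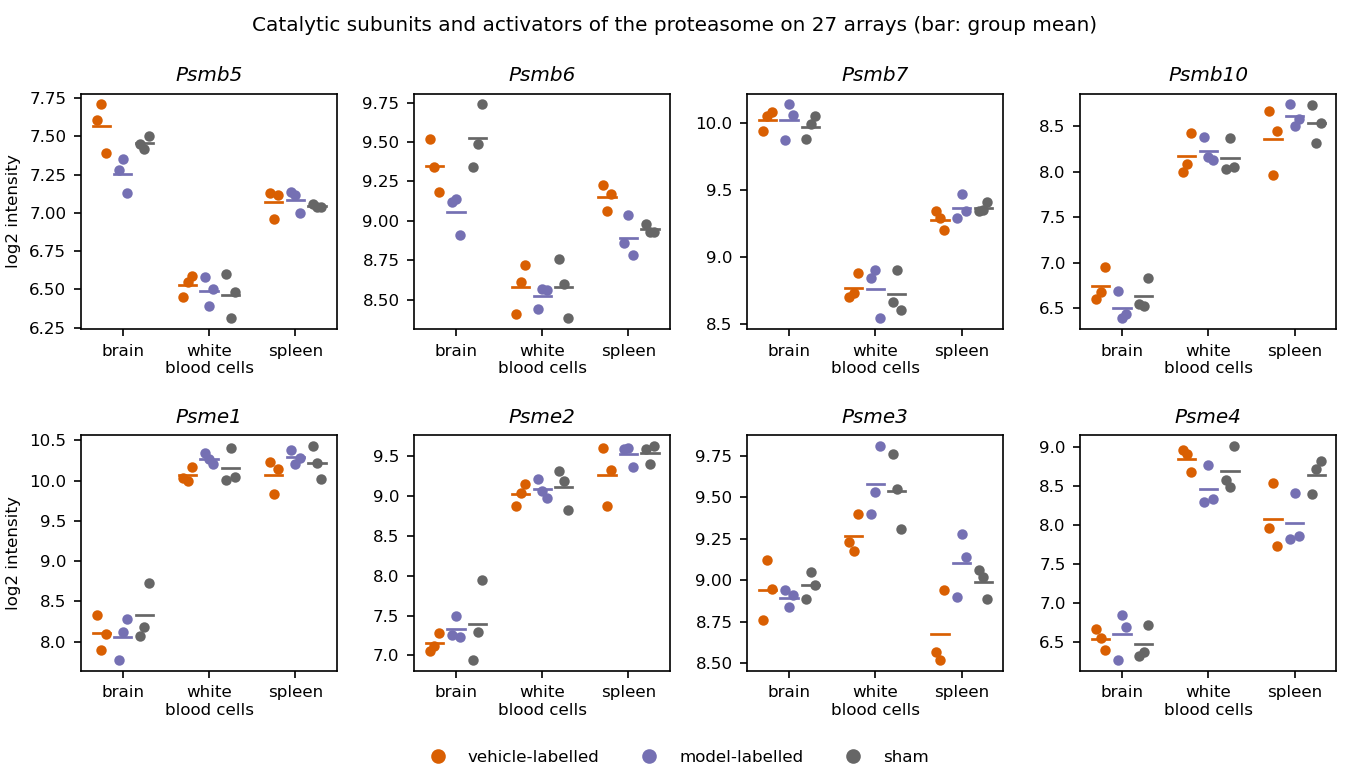
Log2 intensity of the catalytic subunits Psmb5, Psmb6, Psmb7 and Psmb10 and of the activators Psme1 to Psme4 on each of the 27 arrays, by tissue and group, with bars at group means. Within each group, the means of Psmb5, Psmb6 and Psmb7 are highest in brain and those of Psmb10, Psme1, Psme2 and Psme4 lowest in brain. Across groups, arrays of brain and spleen overlap for Psmb5 and Psmb6. Psmb6 reads 8.91 to 9.14 in model-labelled brains and 9.06 to 9.23 in vehicle-labelled spleens. Within a tissue the 3 groups lie close together for most of the genes, and each panel has its own axis range.

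In the regulatory particle, Psmd6, a lid subunit, and the ATPases Psmc1, Psmc2 and Psmc5 had the smallest p-values for brain against white blood cells. Psmd6 had 9.08, 9.27 and 9.66 in sham brains, 7.21, 7.42 and 7.33 in sham white blood cells and 8.34, 8.36 and 8.64 in sham spleens, without overlap between any 2 tissues. Its excess in brain was 2.02 ± 0.14 over white blood cells and 0.89 ± 0.14 over spleen (SE; limma adjusted p = 4.27e-12 and 5.58e-06). Psmc1 was higher in brain than in white blood cells by 1.53 ± 0.12, Psmc2 by 1.26 ± 0.13 and Psmc5 by 1.95 ± 0.17 (SE; limma adjusted p = 4.62e-11, 4.36e-09 and 2.71e-10). Another lid subunit, Psmd12, was higher by 1.54 and the ATPase Psmc6 by 1.32 (limma adjusted p = 6.11e-09 and 2.90e-07). Psmc4 was an exception among the ATPases, lower in brain than in spleen, with a difference of -0.57 ± 0.10 (SE; limma adjusted p = 3.94e-05).

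White blood cells stood below spleen across both complexes. The alpha ring was lower for 7 of 7 genes, the beta ring for 7 of 8, the ATPases for 5 of 6, the regulatory particle for 9 of 11 and the chaperonin for 8 of 9. Psmd5, which helps to assemble the base, had 6.87, 6.65 and 6.58 in sham white blood cells against 8.16, 8.10 and 8.37 in sham spleens, and Psma5 of the alpha ring 6.97, 7.12 and 6.94 against 8.26, 7.97 and 8.44. The tissues did not overlap for either gene, and the differences were -1.51 ± 0.17 and -1.21 ± 0.14 (SE; limma adjusted p = 1.04e-07 and 1.53e-07). Psmc1 followed at -0.97, Psmd6 at -1.13 and Psma4 at -1.14. Over all 53 genes, 40 passed an adjusted p under 0.05 in this comparison, 39 of them lower, where 39% of all genes passed in either direction and 19.3% were lower. The median difference was -0.67 for the 53 genes and 0.12 for all genes. White blood cells were also lower than spleen for 5 of 5 dividing-cell markers (median -3.22) and 10 of 11 erythroid markers (median -2.77), and their part in the result was not tested.

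Against spleen, 25 of the 53 genes differed in brain, 11 higher and 14 lower, a share below the 53.6% of all genes. Against white blood cells, 38 differed in brain, 31 higher and 7 lower, where 59% of all genes differed and 28% were higher. Without sham rat 5 in any tissue the counts were 22 for brain against spleen, 34 for brain against white blood cells and 32 for white blood cells against spleen. Of the calls made with all arrays, 22 of 25, 33 of 38 and 32 of 40 remained, each in its direction. Without this rat Psmb5, Psmb6 and Psmb7 were above spleen in brain by 0.39, 0.46 and 0.59, and Psmb10, Psme1, Psme2 and Psme4 differed by -1.99, -2.20, -2.38 and -2.21, all still passing.

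**Figure D2:**
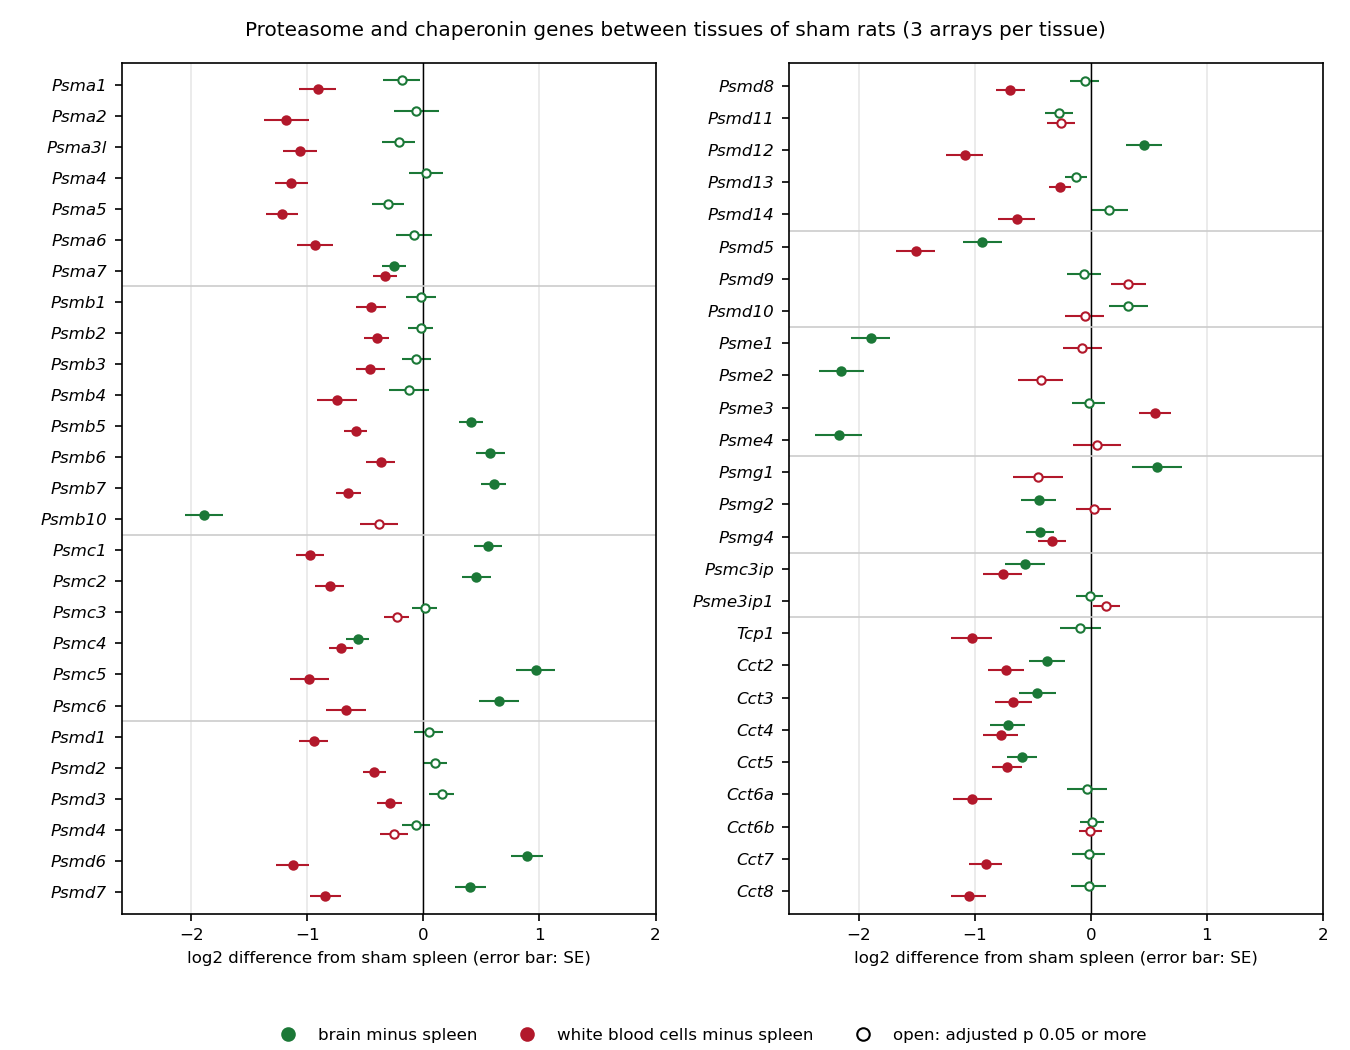
Log2 difference of sham brain and of sham white blood cells from sham spleen for the 53 genes, ordered by role, with standard errors; filled points passed an adjusted p under 0.05. Points of white blood cells lie left of 0 for nearly all subunits, and brain points spread from -2.17 for Psme4 to 0.97 for Psmc5.

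Leaving aside Cct6b, which read between 2.54 and 3.03 on all 27 arrays and whose sham means were 2.77 in brain, 2.76 in white blood cells and 2.76 in spleen, the chaperonin genes were lowest in white blood cells and highest in spleen for 8 of 8 in sham rats. Tcp1 had 8.26, 8.38 and 8.93 in brain, 7.47, 7.78 and 7.51 in white blood cells and 8.75, 8.39 and 8.70 in spleen. White blood cells lay below both other tissues, which overlapped. Relative to spleen, Tcp1 fell by 1.03, Cct8 by 1.05 and Cct6a by 1.02 in white blood cells (limma adjusted p = 5.59e-05, 6.73e-06 and 3.50e-05). In brain the genes divided: Cct2, Cct3, Cct4 and Cct5 were below spleen (-0.38, -0.46, -0.72 and -0.59), whereas Tcp1, Cct6a, Cct7 and Cct8 differed from spleen by -0.09 to -0.02 and did not pass the test. Without sham rat 5 the first 4 differed by -0.52, -0.59, -0.81 and -0.70, and Tcp1, Cct6a, Cct7 and Cct8 by -0.25, -0.10, -0.05 and -0.10, again without passing. The same 4, Tcp1, Cct6a, Cct7 and Cct8, were above white blood cells in brain, by 0.94, 0.99, 0.89 and 1.03, and by 0.70, 0.73, 0.86 and 0.79 without sham rat 5. The median chaperonin difference between brain and white blood cells was 0.35, and 0.12 without sham rat 5.

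Genes that serve both complexes followed partly the same order. Of 8 listed genes for the immunoproteasome and for proteasome maturation and supply, all measured, 4 were lower and 1 higher in white blood cells than in spleen. Of all genes, 39% passed in either direction in this comparison and 19.3% were lower. Among the 8 listed, Nfe2l1, the transcription factor that restores proteasome genes when the proteasome is inhibited, was lower (-1.07), as was Pomp, which matures the core (-1.06). Of 9 measured prefoldin subunits and chaperonin partners, which deliver or regulate clients, 7 were lower in white blood cells than in spleen, where 19.3% of all genes were. Against white blood cells, 7 of the 9 were higher in brain, where 28% of all genes were. These included Pfdn2 by 2.23 ± 0.17 and Pfdn6 by 1.43 ± 0.14 (SE; limma adjusted p = 1.91e-11 and 2.46e-09).

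After MCAO, 1 of the 53 genes passed the test in 1 tissue. Psmd8, a lid subunit of the regulatory particle, was higher in white blood cells of vehicle-labelled rats than in either other group. It had 8.05, 8.11 and 8.06 in vehicle-labelled white blood cells, 7.41, 7.58 and 7.27 in model-labelled and 7.43, 7.41 and 7.35 in sham. The vehicle-labelled arrays lay above all others, and the other groups overlapped. The difference was 0.68 ± 0.11 against sham and 0.65 ± 0.11 against model-labelled rats (SE, n = 3 each; limma adjusted p = 0.00460 and 0.00799). All genes passed at 2.01% in the first comparison and 1.56% in the second, so 1 of 53 is near the background. Psmd8 was called on 1 of its 2 probes: the dim second probe, averaging 3.50 over the arrays, differed by 0.04 and 0.16. With the 2 probes averaged, the differences were 0.36 and 0.41 and did not pass (limma adjusted p = 0.145 and 0.109).

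White blood cells of vehicle-labelled rats also carried more erythroid and neutrophil transcripts. The mean of 11 measured erythroid markers, of 12 listed, ranged from 9.16 to 10.08 on vehicle-labelled, 7.71 to 7.83 on model-labelled and 7.01 to 7.68 on sham arrays. Of these, 10 were higher than in sham and 11 higher than in model-labelled cells. The mean of 10 neutrophil markers ranged from 7.75 to 8.18 on vehicle-labelled, 6.49 to 7.01 on model-labelled and 6.20 to 6.57 on sham arrays, with 6 markers higher than in sham and 4 higher than in model-labelled cells. None of these markers read 0 on any array, but no deposited value lies below 1.53, so this says nothing on their presence. The part of these cells in the Psmd8 result was not tested. In brain, Psmd8 read 8.38, 8.62 and 8.42 in vehicle-labelled, 7.91, 8.02 and 7.91 in model-labelled and 8.16, 7.97 and 7.98 in sham rats, vehicle-labelled again above both. These brain differences, 0.53 ± 0.11 from model-labelled and 0.44 ± 0.11 from sham (SE), did not pass (limma adjusted p = 0.141 and 0.225), nor did they without the pair of arrays that stood apart (0.57 and 0.46). In spleen the groups overlapped, with a difference from sham of 0.04 (95% interval -0.30 to 0.38).

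**Figure D3:**
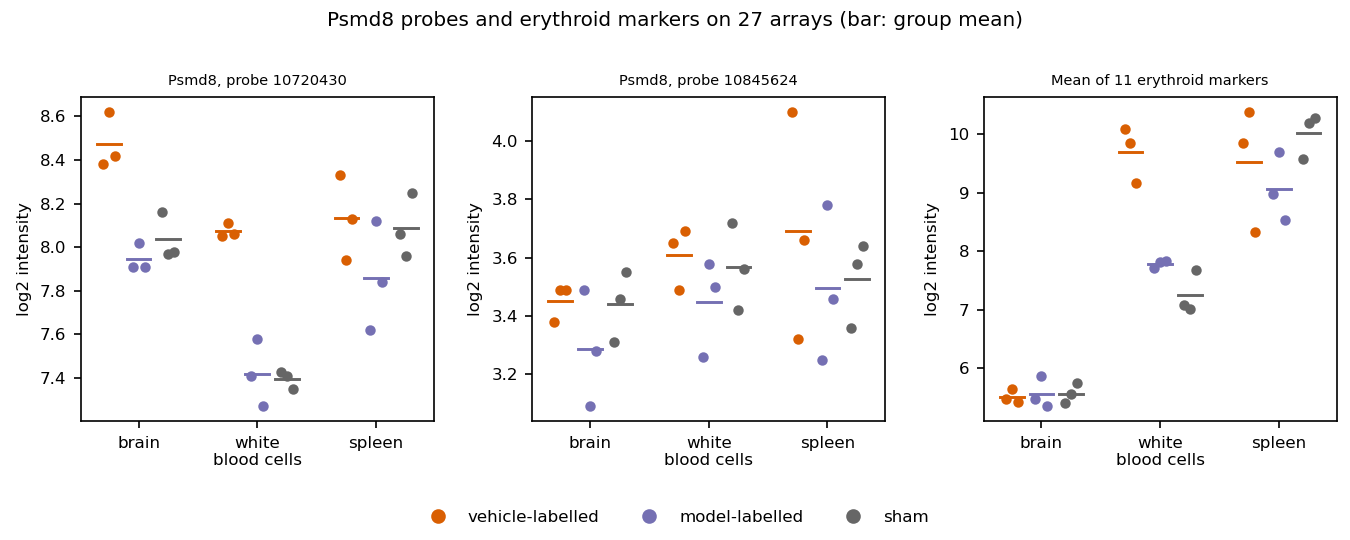
Log2 intensity of the 2 Psmd8 probes and the mean of 11 erythroid markers on each of the 27 arrays, by tissue and group, with bars at group means. On the brighter probe (10720430) vehicle-labelled white blood cells lie at 8.05 to 8.11, above the other groups, and erythroid markers are highest in the same group among the white blood cell arrays.

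The other genes with the smallest p in white blood cells did not pass. Against model-labelled rats, Psmd9 of vehicle-labelled rats differed by 0.44 (limma adjusted p = 0.132), Psmc4 by 0.34 and Psmd4, a ubiquitin receptor, by 0.34. A second probe of Psmc4 differed by 0.16 in this comparison. Against sham, Psmg2, a chaperone for core assembly, differed by -0.38 ± 0.11 (SE; limma adjusted p = 0.114). For model-labelled against sham white blood cells, 0 of 53 genes passed limma's test, as did 0% of all genes; 8 of 53 had an unadjusted p under 0.05, as did 6.07% of all genes, and 7 of the 8 were chaperonin genes. The 44 proteasome genes had a median difference of -0.01, and their 95% intervals all lay between -0.58 and 0.55.

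The chaperonin genes lay above sham in white blood cells of both MCAO groups, though none passed the test. Cct3 had 8.45, 8.55 and 8.87 in vehicle-labelled, 8.46, 8.40 and 8.84 in model-labelled and 8.27, 8.0 and 7.75 in sham cells. Tcp1 had 7.98, 8.09 and 8.38 in vehicle-labelled, 7.86, 8.03 and 8.52 in model-labelled and 7.47, 7.78 and 7.51 in sham cells. Cct6a had 6.97, 7.05 and 7.29 in vehicle-labelled, 6.92, 6.99 and 7.43 in model-labelled and 6.85, 6.62 and 6.39 in sham cells. For all 3 genes both MCAO groups lay above every sham array and overlapped each other. In model-labelled cells the differences from sham were 0.56 ± 0.16, 0.55 ± 0.17 and 0.49 ± 0.16 (SE; limma adjusted p = 0.585, 0.601 and 0.611). In vehicle-labelled cells they were 0.62, 0.56 and 0.48 (limma adjusted p = 0.0881, 0.136 and 0.184).

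Over the 9 chaperonin genes, the median difference from sham was 0.38 in model-labelled and 0.32 in vehicle-labelled cells, against -0.04 and -0.06 for all genes. Model-labelled arrays lay above every sham array for 8 of 9 genes, where 4.69% of all genes did, and vehicle-labelled arrays for 4 of 9, where 5.38% did. Both comparisons use the same sham arrays, and the chaperonin genes varied together, with a median pairwise r of 0.87 over the 9 white blood cell arrays, so they are not separate observations. Between the MCAO groups the chaperonin intervals lay between -0.45 and 0.41. The part of erythroid cells and neutrophils in the chaperonin values of white blood cells was not tested.

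**Figure D4:**
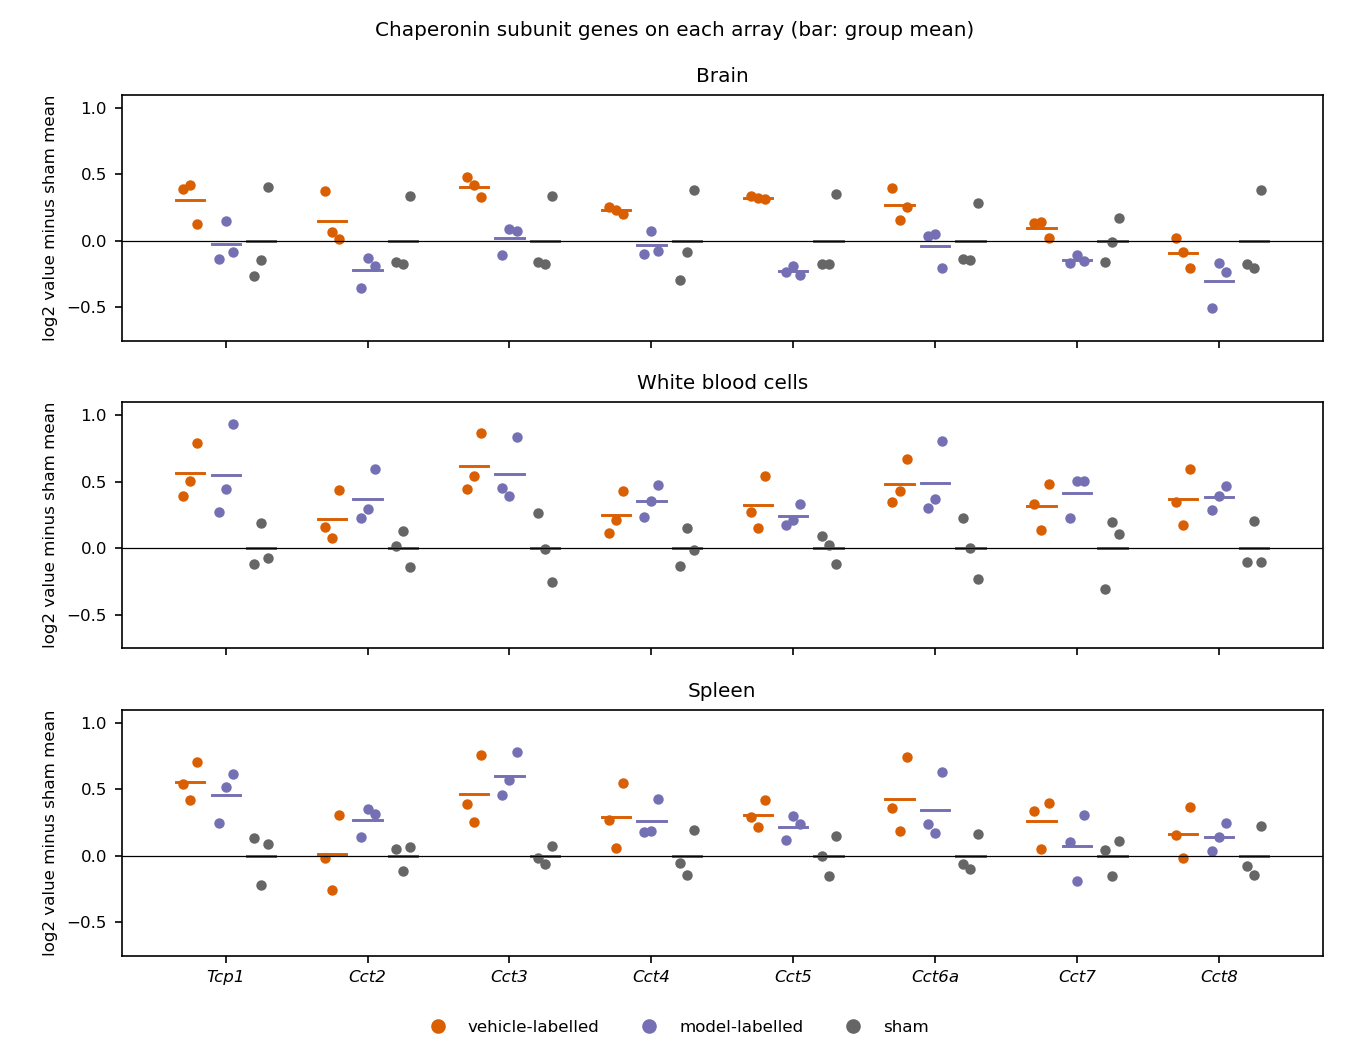
Log2 value minus the sham mean of its tissue for 8 chaperonin genes on each array, by group, with bars at group means; Cct6b, which read 2.54 to 3.03 throughout, is not drawn. In white blood cells most points of both MCAO groups lie above 0, and in brain the high sham point of each gene is rat 5.

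In spleen the chaperonin values pointed the same way, again without passing. Tcp1 had 9.15, 9.03 and 9.32 in vehicle-labelled, 8.86, 9.13 and 9.23 in model-labelled and 8.75, 8.39 and 8.70 in sham spleens. Cct3 had 9.06, 8.93 and 9.43 in vehicle-labelled, 9.13, 9.24 and 9.45 in model-labelled and 8.66, 8.61 and 8.75 in sham spleens. Neither MCAO group overlapped sham for either gene. The differences from sham were 0.55 ± 0.15 and 0.47 ± 0.15 in vehicle-labelled spleens (SE; limma adjusted p = 0.306 and 0.382) and 0.46 ± 0.15 and 0.60 ± 0.15 in model-labelled spleens (limma adjusted p = 0.356 and 0.239). Chaperonin medians were 0.29 and 0.26, against 0.04 and 0.07 for all genes, and 4 of 9 genes lay above every sham array in each comparison, where 7.49% and 13.4% of all genes did. Cell type markers moved in the same spleens, though 0 passed limma's test. The mean of 10 neutrophil markers ranged from 7.19 to 7.61 in vehicle-labelled, 7.34 to 7.70 in model-labelled and 7.65 to 8.65 in sham spleens. That of 5 dividing-cell markers ranged from 6.80 to 7.63 in vehicle-labelled, 6.67 to 7.32 in model-labelled and 7.38 to 7.89 in sham spleens. Median differences from sham of 11 erythroid markers were -0.59 in vehicle-labelled and -0.97 in model-labelled spleens, and those of 6 exocrine pancreas markers 0.44 and 0.07. The part of these cells in the chaperonin values was not tested.

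Proteasome genes in spleen stayed near sham, with medians of -0.06 in vehicle-labelled and -0.06 in model-labelled rats. Psmd10, an oncoprotein (gankyrin) that helps assemble the base, had 5.89, 5.87 and 6.10 in vehicle-labelled spleens, 5.56, 6.11 and 5.64 in model-labelled and 5.53, 5.41 and 5.56 in sham, and vehicle-labelled did not overlap sham (0.45 ± 0.15, SE; limma adjusted p = 0.399). Psme4 read 7.96, 8.54 and 7.74 in vehicle-labelled, 7.82, 8.41 and 7.86 in model-labelled and 8.40, 8.72 and 8.82 in sham spleens. Its groups overlapped, and its difference was -0.62 ± 0.22 in model-labelled spleens (SE; limma adjusted p = 0.404). Between MCAO groups, the ATPase Psmc6 had 8.71, 8.11 and 8.26 in vehicle-labelled spleens, against 7.79, 7.89 and 7.67 in model-labelled spleens. The scaffold subunit Psmd1 had 8.27, 8.25 and 8.29 in vehicle-labelled spleens, against 8.48, 8.80 and 8.74 in model-labelled spleens. Neither pair overlapped, and neither passed (0.58 ± 0.16 and -0.40 ± 0.12, SE; limma adjusted p = 0.191 and 0.214); Psme3 followed at -0.43 (limma adjusted p = 0.249). In the 3 spleen comparisons 0 of 53 genes passed limma's test, against 0.0483% of all genes for vehicle-labelled and 0.0414% for model-labelled minus sham and 0% between the MCAO groups, and 8, 3 and 6 of the 53 had an unadjusted p under 0.05, where 9.35%, 9.5% and 12.9% of all genes did.

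In brain 0 of 53 genes passed limma's test in any of the 3 comparisons, against 0.0483% of all genes for vehicle-labelled minus sham, 1.16% for model-labelled minus sham and 0.0551% for vehicle-labelled minus model-labelled, and 5, 9 and 15 of the 53 had an unadjusted p under 0.05, where 9.33%, 14.4% and 14.3% of all genes did. With all arrays, most proteasome genes had a lower mean in model-labelled brains than in either other group. Psmc4 went the other way against sham, at 7.99, 7.93 and 8.0 in model-labelled and 7.79, 7.78 and 7.83 in sham brains. Psmd6 had 9.23, 9.17 and 9.11 in vehicle-labelled, 8.68, 8.90 and 8.84 in model-labelled and 9.08, 9.27 and 9.66 in sham brains. Psmb6, an active-site subunit, had 9.52, 9.34 and 9.18 in vehicle-labelled, 9.12, 9.14 and 8.91 in model-labelled and 9.34, 9.49 and 9.74 in sham brains. Psma4 of the alpha ring had 9.13, 9.08 and 9.03 in vehicle-labelled, 8.59, 8.90 and 8.66 in model-labelled and 8.94, 9.18 and 9.50 in sham brains. Model-labelled arrays lay below every sham array for all 3 genes, and for each the highest sham array was rat 5. The differences from sham were -0.53 ± 0.15, -0.47 ± 0.14 and -0.49 ± 0.15 (SE; limma adjusted p = 0.164, 0.192 and 0.199), and -0.37, -0.36 and -0.34 without the pair of arrays that stood apart.

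The median difference of the 44 proteasome genes in model-labelled brains was -0.19 against sham, and -0.10 without that pair. Model-labelled arrays lay below every sham array for 11 of 44 genes, where 8.34% of all genes did, and also for 11 of 44 without the pair, where 12.5% of all genes did. Of the 44, 7 were above sham with all arrays and 14 without the pair. Between the MCAO groups, vehicle-labelled brains had proteasome genes above model-labelled brains in 39 of 44 cases, with a median of 0.20, and 0.17 in 35 of 44 cases without the pair. That median was 0.11 under quantile normalization, with 32 of 44 genes above, and 0.09 with the replicate number as a block, with 29 of 44 above. The replicate number pairs no rats between groups, so the block fit cannot show dependence on a pairing. Groups did not overlap for 17 of 44 genes with vehicle-labelled higher, where 10% of all genes did so, and for 20 of 44 without the pair, where 15.6% of all genes did. Oligodendrocyte markers moved with this comparison: the mean of 4 ranged from 8.45 to 9.14 in vehicle-labelled and from 7.23 to 8.33 in model-labelled brains, with a median difference of 1.02, though 0 of 4 passed limma's test. Against sham, the mean of 10 neutrophil markers was 4.67 to 4.95 in model-labelled and 4.07 to 4.34 in sham brains, and that of 4 monocyte markers 6.29 to 6.49 in model-labelled and 5.49 to 5.59 in sham brains. Of these, only the monocyte marker Cd14 passed limma's test. The part of these cells in the proteasome values was not tested. Cct5 had 9.84, 9.83 and 9.82 in vehicle-labelled brains against 9.27, 9.32 and 9.25 in model-labelled brains, and Psmd14, the deubiquitinase of the regulatory particle, 8.41, 8.45 and 8.33 in vehicle-labelled against 7.78, 8.03 and 8.0 in model-labelled brains. The groups did not overlap for either gene, with differences of 0.55 ± 0.15 and 0.46 ± 0.15 (SE; limma adjusted p = 0.187 and 0.247), and 0.55 and 0.45 without the pair. Vehicle-labelled minus sham brains had a proteasome median of -0.01, and 0.06 without the pair. In that comparison Psmc4 differed by 0.35 (limma adjusted p = 0.245) and Psmc3ip by -0.44 (limma adjusted p = 0.418).

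**Figure D5:**
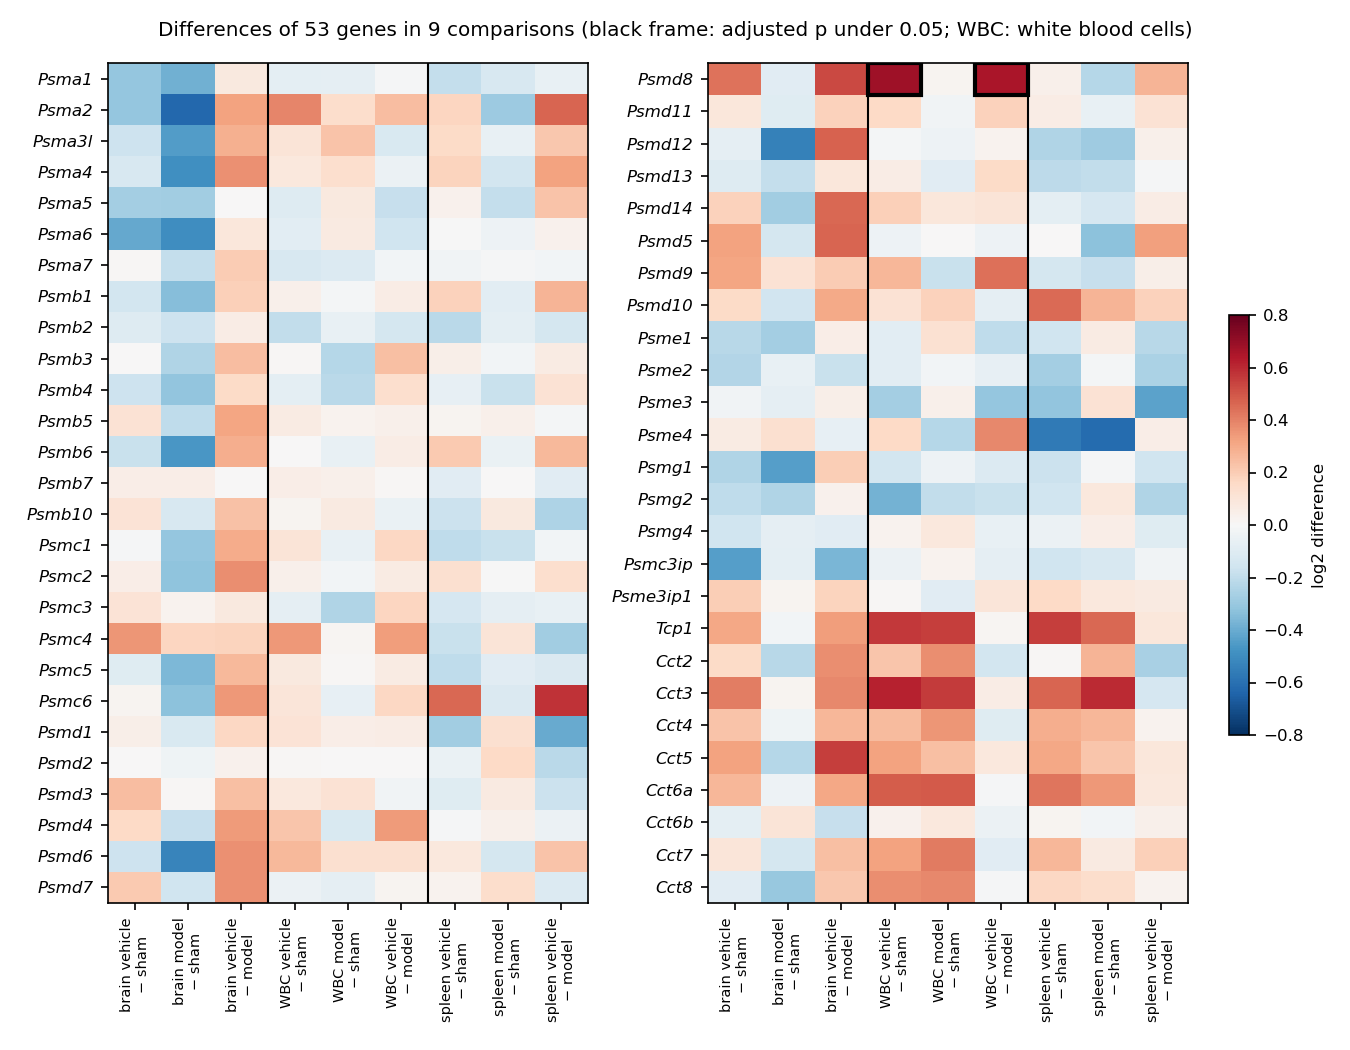
Log2 difference of each of the 53 genes in the 9 comparisons of groups within brain, white blood cells (WBC) and spleen, red for higher and blue for lower in the first-named group. Frames mark the only called differences, Psmd8 in white blood cells at 0.68 and 0.65; the chaperonin rows are mostly red against sham in white blood cells and spleen, and the model minus sham column of brain is mostly blue.

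Some heat shock genes, of a broader family of chaperones and co-chaperones under heat shock factor, did pass the test after MCAO. The vehicle-labelled white blood cells also carried more erythroid and neutrophil transcripts, as given above. The part of cell types in the heat shock values was not tested in any tissue. Of 16 measured, 8 rose in white blood cells of vehicle-labelled rats against sham, where 2.01% of all genes passed in either direction. In spleen, 4 rose in vehicle-labelled and 2 in model-labelled rats, where 0.0483% and 0.0414% of all genes passed. In brain, 1 rose in vehicle-labelled and 2 in model-labelled rats, where 0.0483% and 1.16% of all genes passed. Stip1, which links Hsp70 with Hsp90, rose by 1.66 ± 0.23 in vehicle-labelled white blood cells and by 1.38 ± 0.20 in model-labelled spleens (SE; limma adjusted p = 0.000966 and 0.0417). Hsph1, a nucleotide exchange factor of Hsp70, rose by 2.24 ± 0.32 in vehicle-labelled white blood cells, and Dnajb1, an Hsp40 co-chaperone, by 1.89 ± 0.19 in vehicle-labelled and 1.78 ± 0.19 in model-labelled brains (SE; limma adjusted p = 0.00137, 0.0179 and 0.00257). In model-labelled white blood cells 0 of 16 passed limma's test at a median of 0.64, where 0% of all genes passed. Heat shock medians against sham in white blood cells and spleen lay between 0.64 and 0.79, beside chaperonin medians of 0.26 to 0.38. In brain the heat shock medians were 0.91 in vehicle-labelled and 0.25 in model-labelled rats, beside chaperonin medians of 0.23 and -0.04, which were 0.35 and 0.10 without the pair. The heat shock values of brain are given with all arrays only. Of 14 measured ubiquitin and shuttle genes, Ubqln1, which carries tagged proteins to the proteasome, rose by 0.58 in vehicle-labelled white blood cells (limma adjusted p = 0.0492). No immunoproteasome or maturation gene, prefoldin partner or actin or tubulin client gene passed in any of the 9 comparisons.

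Whether the responses differed between tissues was tested for 6 pairs of tissues and MCAO groups, and 0 of 53 genes passed limma's test in any, where for vehicle-labelled minus sham 0.772% (white blood cells against spleen), 0.862% (white blood cells against brain) and 0.145% (brain against spleen) of all genes did, and for model-labelled minus sham, over the same pairs of tissues, 0%, 1.07% and 0.82%. An unadjusted p under 0.05 was reached by 4, 3 and 6 of the 53 genes for vehicle-labelled and by 0, 14 and 6 for model-labelled minus sham, where 11.3%, 9.94% and 9.58% of all genes did in the first 3 and 5.94%, 12.4% and 11.8% in the others. The lowest limma adjusted p-values were 0.111 for Psmc4 and 0.117 for Psmd8, both for vehicle-labelled minus sham in white blood cells against spleen. For vehicle-labelled minus sham, Psmc4 differed by 0.35 in white blood cells and -0.18 in spleen, and its second probe by 0.16 and -0.23. For Psmd8 this difference of differences was 0.63 (95% interval 0.27 to 1.00), and against brain it was 0.24 (95% interval -0.12 to 0.60), so the Psmd8 rise is not shown to be particular to white blood cells. The 14 genes above rest partly on sham rat 5. For model-labelled minus sham in white blood cells against brain, the proteasome median was 0.15, and 0.04 without that rat in any tissue. The chaperonin median was 0.54, and 0.28 without it.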

How the data were processed

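The authors deposited 1 table of values for 27596 probes on 27 arrays, made with RMA per the submitters' processing notes, in an unstated version. No scale is given; the deposited values were taken as log2 intensities because they lie between 1.53 and 13.49, with medians per array of 4.96 to 5.31. Whether tissues were normalized together is not given in the sources used here. Probes with 1 symbol (15310) were kept, those with several (323) or no listed gene (11963) left out, and the probe with the highest mean over 27 arrays stood for its gene, which gave 14506 genes. MCAO effects were tested within a tissue (9 arrays, group means) by lmFit and eBayes of limma 3.58.1 under R 4.3.3, 2-sided, and tissue contrasts and differences between tissues over all 27 arrays, with Benjamini-Hochberg adjustment within a contrast over all genes and calls at an adjusted p under 0.05. The fit was tested on simulated data.

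The members, lists and tests were chosen with earlier results of these data known. Full values are given for the called genes with the smallest p, at most 5 higher and 5 lower, or else the 3 with the smallest p; the catalytic genes and activators may be given in any tissue, and up to 4 called genes per list. Same-numbered arrays of different groups are different rats and are not paired. Within a group the number links tissues: same-rat residuals correlated at a median of 0.13 across genes, and different rats at -0.05. RefSeq lists 70 pseudogenes named after 24 of the members, whose transcripts a probe may also catch. No label gives a batch, so batch and group cannot be told apart. Sequences of these genes were not used here. Alternatives were another normalization, a filter on dim probes, the mean of a gene's probes, a variance trend, a fit of all arrays, blocks and leaving out each array.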

Additional observations from a re-analysis of the deposited data

How the results depend on the processing

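The number of the 53 genes called moved by over 1.5 times in the following settings. In a fit of all 27 arrays, 2 were called in brain for model-labelled minus sham, Psmb6 and Psmd6, both lower (limma adjusted p = 0.0333 and 0.0307), and 2 for vehicle-labelled minus model-labelled, Cct5 and Psmd8, both higher (limma adjusted p = 0.0209 and 0.0246), against 0 within the tissue. For white blood cells, 0 were called with the probes of a gene averaged or with the replicate number of the titles as a block, for vehicle-labelled minus sham and minus model-labelled alike; Psmd8 then differed by 0.63 and 0.63 under the replicate block (limma adjusted p = 0.184 and 0.465). Its call against model-labelled rats was also lost without model-labelled rat 1 or rat 3 (limma adjusted p = 0.0539 and 0.0579), so that count ranged from 0 to 1 over arrays left out, and stayed at 1 against sham. Counts over arrays left out ranged from 32 to 38 for sham white blood cells against spleen, 19 to 22 for brain against spleen and 34 to 39 for brain against white blood cells, and stayed at 0 in the other comparisons. With rat as a replicate block the tissue counts were 40, 25 and 40, and 0 for the differences between tissues; under quantile normalization they were 42, 27 and 39, of which 38, 25 and 38 were calls of the fit as reported, and with probes averaged 39, 25 and 37. The chaperonin median for sham brain against white blood cells was 0.62 with the filter on dim probes, which leaves out Cct6b, and that of vehicle-labelled minus sham brains 0.14 with the replicate number as a block. Because that number pairs no rats between groups, values and calls that moved under this block cannot be read as dependence on a pairing. Of named genes under single alternatives, 750 values kept their side of the threshold, 4 gained and 6 lost a call and 0 reversed. With 3 arrays per group, precision is limited: the median SE of a proteasome difference was 0.13 to 0.14 within a tissue.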

Other observations

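The members varied together within a tissue. Over its 9 arrays the median pairwise r among 8 chaperonin genes, without Cct6b, was 0.85 in brain, 0.87 in white blood cells and 0.80 in spleen, and among proteasome genes 0.52, 0.30 and 0.29; these arrays share groups, and the values are a description. In brain, the array of sham rat 5 had the highest proteasome median of the 9, 0.32 above the tissue mean, and a chaperonin median 0.31 above it. Sham brains had a median SD of 0.24 over the 53 genes, against 0.12 to 0.17 in the other 8 groups.

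The core assembly chaperones and the base assembly chaperones showed no common tissue order. Psmd5 was lower than in spleen in brain (-0.93) and in white blood cells (-1.51), whereas Psmg1 was higher in brain than in spleen by 0.57 and Psmg2 and Psmg4 lower, at -0.45 and -0.44; without sham rat 5 these were 0.33, -0.66 and -0.58, and Psmg1 no longer passed (limma adjusted p = 0.239). Psmc3ip, no subunit, was lower than in spleen in brain and in white blood cells, at -0.57 and -0.76.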
